A study of Mus musculus with 7 samples.

Results

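The genes described here are 31 genes of B cell identity and signalling, taken as a list of B cell genes that leaves out the immunoglobulin segments. The list was chosen with earlier results of these data known. Its counts and medians, set beside those of all genes, are therefore a description and not a test. They were followed in the RNA of a sorted thymic stromal population that the labels call MHCIIhi MECs, which are medullary epithelial cells rich in MHC class II, taken from NOD mice after a bone marrow transfer. For each gene the probe set with the highest mean was used among the probe sets with 1 gene symbol in the platform annotation. Under that rule 30 of the 31 genes were measured, each by 1 probe set, out of 19937 genes in all. Lyn, a Src-family kinase gene of the list, had no such probe set among those used here and was not analysed.

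The reconSCID group held 3 samples from NOD mice with the SCID mutation in DNA-PK, and the reconRAG1KO group, against which it is set here, held 4 samples from NOD mice with null RAG1. Pups of 2 to 4 days in both groups were irradiated with 200 rad and received bone marrow by intraperitoneal injection 6 h later, and the thymi were taken 6 to 8 weeks after transfer. Both mutations block the joining of antigen receptor gene segments, so such hosts make few or no mature lymphocytes of their own. The labels give the arrays as biological replicates but neither the number of thymi behind an array nor the genotype of the marrow donors, and p-values measure the spread between these samples only.

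B cells are defined by an antigen receptor whose signal runs through the paired chains CD79A and CD79B to kinases and adaptor proteins. Coreceptors raise or lower that signal, and the transcription factors EBF1 and PAX5 set up and maintain the identity of the lineage. The thymus holds a small B cell population, much of it in the medulla, which carries MHC class II and can present antigen to developing T cells. Because an epithelial sort was profiled in bulk, the cells that gave rise to a transcript cannot be named. More or fewer B cells, more or less RNA per B cell, and transcripts from other cells cannot be told apart.

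The arrays did not form 1 homogeneous set. Over all probe sets on the log2 scale, the correlation between reconSCID replicate 2 and reconRAG1KO replicate 4 was 0.972, while either one correlated with the remaining 5 arrays at 0.922 to 0.947. The 5 arrays, 2 of reconSCID and 3 of reconRAG1KO, are called the larger array set, and the 2 arrays the smaller array set. The labels name no batch that matches them. Of the 30 genes, 10 were lower in the smaller set at an adjusted p under 0.05 in a limma fit with group as a term, beside 17.3% of all genes. These were Btk, Dapp1, Pik3ap1, Cd72, Siglecg, Ms4a1, Cd37, Cxcr5, Cnr2 and Cd180, and 0 of the 30 were higher there, beside 26.9% of all genes. The sets were split on these same values, so those counts are a description. Results are given over all arrays and within each set. The epithelial genes Aire and Epcam, which check the label, measured 9.73 to 11.46 and 8.91 to 10.35 in reconSCID, and 10.89 to 11.93 and 9.31 to 10.16 in reconRAG1KO (log2 intensity).

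Of the 30 B cell genes, 28 had a higher mean in reconSCID than in reconRAG1KO, beside 47.6% of all genes, and no difference passed the adjusted test. By limma, 0 of the 30 had an adjusted p under 0.05, beside 0% of all genes in either direction, and 6 were higher at an unadjusted p under 0.05, beside 0.863% of all genes. The 6 were Fcmr, Fcrl1, Ebf1, Bank1, Pax5 and Pou2af1, and 0 were lower at that threshold, beside 1.19% of all genes. The median log2 difference, reconSCID minus reconRAG1KO, was 0.44 over the 30 genes and -0.01 over all 19937. A difference of 0.5 or more was seen in 13 of the 30, beside 0.682% of all genes, and of 1 or more in 5 of the 30, beside 0.0502%. Those 5 were Ms4a1, Cd79a, Fcmr, Bank1 and Pax5. A second count used levels in single arrays. ReconSCID replicate 3 was the highest of the 7 arrays in 24 of the 30 genes, beside 15.3% of all genes, replicate 1 in 3, beside 7.72%, and replicate 2 in 2, beside 27.6%. ReconRAG1KO replicate 4 was the highest in Blnk, beside 30% of all genes. At the low end of the differences, Blnk differed by -0.07 and Dapp1 by -0.02.

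**Figure D1:**
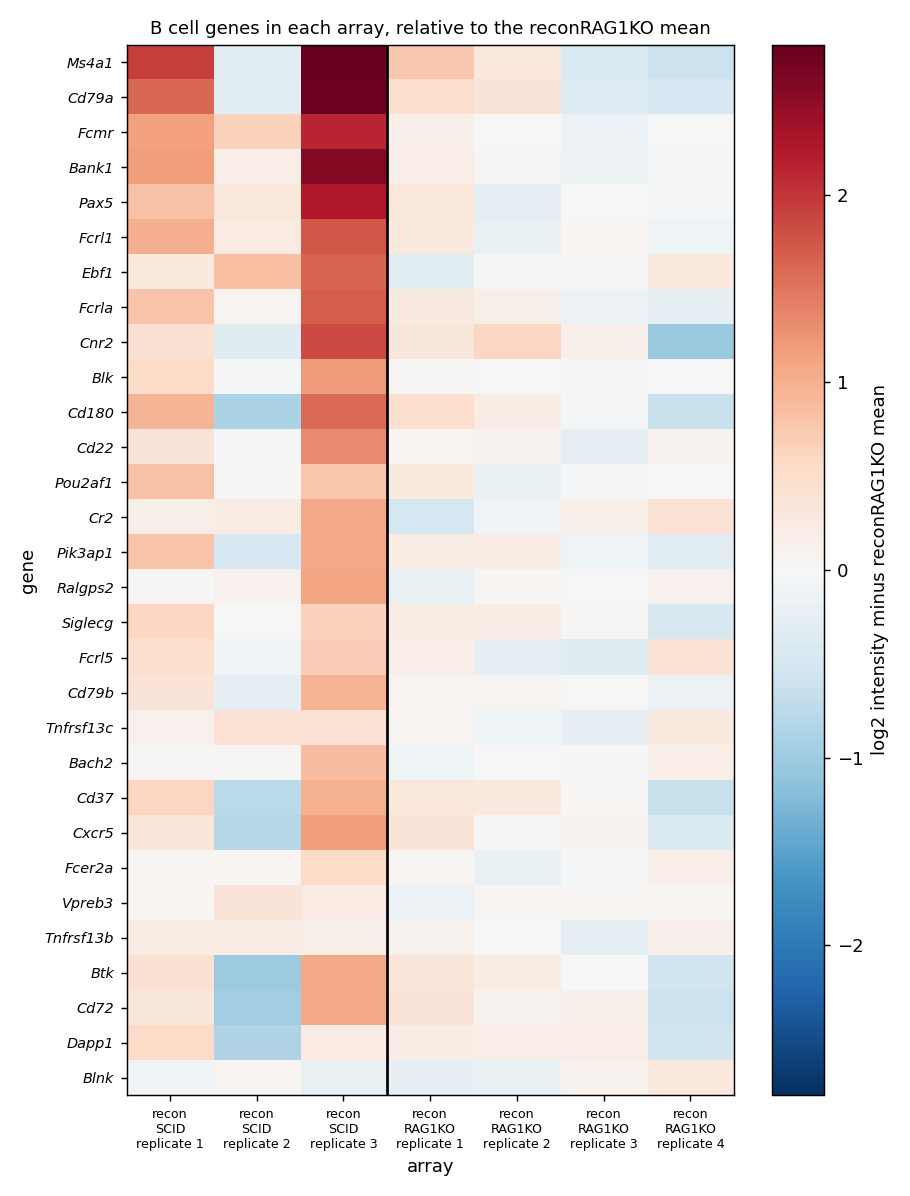
Log2 intensity of 30 B cell genes (rows, ordered by the difference between groups) in each of the 7 arrays (columns, reconSCID left of the line), as the difference from the mean of the reconRAG1KO arrays. ReconSCID replicate 3 is the highest array for 24 genes, and the median over the genes is 0.02 in reconSCID replicate 2.

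Each reconSCID replicate alone gave a different picture. Replicate 3 lay above all 4 reconRAG1KO arrays in 29 of the 30 genes, beside 20.3% of all genes, with Blnk as the exception. Replicate 1 did so in 19 of 30, beside 16.9% of all genes, and replicate 2 in 6 of 30, beside 29.7%. The median distance from the reconRAG1KO mean over the 30 genes was 1.07 in replicate 3, 0.46 in replicate 1 and 0.02 in replicate 2 (log2). Replicate 3 exceeded the highest reconRAG1KO array by 1 or more in 12 genes, beside 0.461% of all genes, replicate 1 in Cd79a and Ms4a1, beside 0.0351%, and replicate 2 in 0, beside 0.0552%. With a margin of 0.5 the counts were 22 genes in replicate 3, beside 2.86% of all genes, 9 in replicate 1, beside 0.642%, and Ebf1 in replicate 2, beside 1.57%. The 6 genes in which replicate 2 was above all reconRAG1KO arrays were Ebf1, Fcmr, Tnfrsf13c, Tnfrsf13b, Vpreb3 and Ralgps2. In 8 genes replicate 2 was below all of them, beside 20% of all genes. These 8 were Cd79b, Btk, Dapp1, Pik3ap1, Cd72, Cd37, Cxcr5 and Cd180, and all but Cd79b are among the 10 that were lower in the smaller array set. No gene lay below all reconRAG1KO arrays in replicate 1, beside 24.9% of all genes, or in replicate 3, beside 29.7%. In 20 of the 30 genes the order was replicate 3 over replicate 1 over replicate 2, beside 16.6% of all genes.

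**Figure D2:**
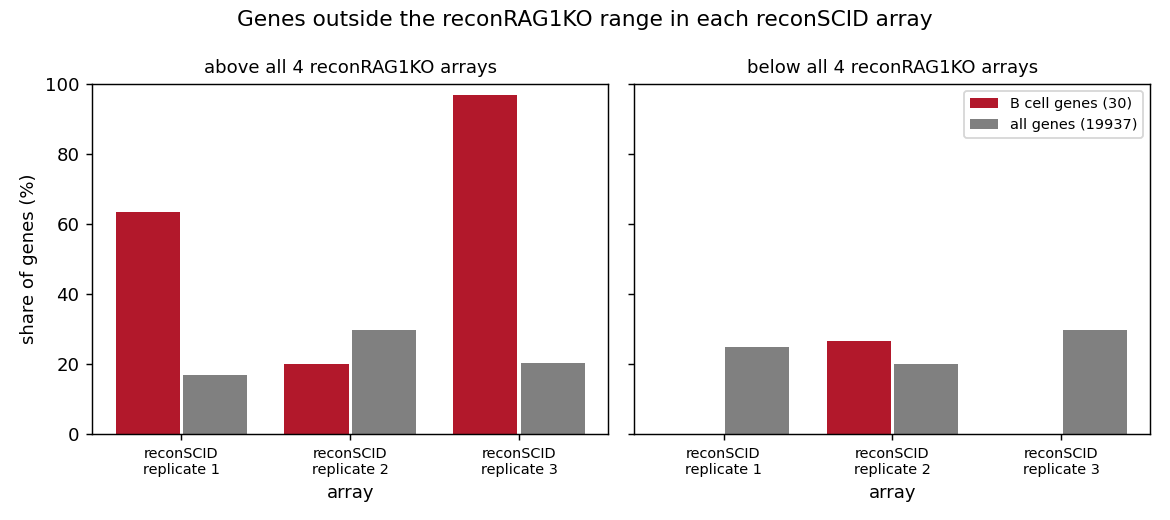
Share of genes (%) in which each reconSCID array lies above (left) or below (right) all 4 reconRAG1KO arrays, for the 30 B cell genes and for all 19937 genes. The share above is 96.7% in replicate 3 and 63.3% in replicate 1, and 20% in replicate 2, where all genes stand at 29.7%.

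Within the larger array set, 2 reconSCID samples stood against 3 reconRAG1KO samples, and 29 of the 30 genes were higher in reconSCID, beside 46.2% of all genes. The groups did not overlap in 22 of the 30, beside 13.7% of all genes, with reconSCID higher in each, while 0 were lower without overlap, beside 18.1%, and the median difference was 0.73, beside -0.01 over all genes. In that fit 16 genes had an unadjusted limma p under 0.05 as higher, beside 7.65% of all genes, and 0 as lower, beside 7.78%. Differences of 0.5 or more were seen in 22 genes, beside 2.2% of all genes, and of 1 or more in 9, beside 0.206%. In the larger set 0 passed after adjustment, the smallest adjusted p among the 30 being 0.173 (Siglecg). In the smaller set, reconSCID replicate 2 was above reconRAG1KO replicate 4 in 15 of 30 genes, beside 46% of all genes, and below it in the other 15, beside 51.8%. The median difference there was -0.01, as it was over all genes, and 1 array per group allows no test. The difference between the sets was itself tested as an interaction of group and array set, and 0 of 30 genes passed at an adjusted limma p under 0.05, beside 0% of all genes. At an unadjusted p under 0.05, Pik3ap1, Fcrl5 and Cd180 had a smaller difference in the smaller set, which is 3 of 30, beside 10.9% of all genes. The smaller set gave that test 1 array per group, so 0 passing does not show that the sets were alike. The median interaction, smaller minus larger set, was -0.85 over the 30 genes and -0.00 over all genes.

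How far the counts rested on single arrays was measured by leaving them out. Without reconSCID replicate 3, 24 of the 30 genes were higher, beside 52.2% of all genes. By 0.5 or more 7 were higher, beside 0.482%, namely Cd79a, Bank1, Pax5, Ebf1, Fcrl1, Fcmr and Ms4a1, and 0 by 1 or more, beside 0.0401%. Pax5 and Fcmr had an unadjusted limma p under 0.05 in that fit, which is 2 of 30, beside 0.396% of all genes, and the median difference was 0.20. Without reconSCID replicate 2, 29 were higher, beside 40.3% of all genes, 23 by 0.5 or more, beside 4.7%, and 9 by 1 or more, beside 0.592%. There 16 had an unadjusted p under 0.05, beside 4.46% of all genes, and the median was 0.78. That fit kept reconRAG1KO replicate 4 as its only array of the smaller set. The difference between groups is thus mixed in it with that between array sets. The larger set alone had a median of 0.73. A fit over all 7 arrays that held a term for the array set had 29 genes higher, beside 45.7% of all genes, 14 by 0.5 or more, beside 1.09%, and 6 by 1 or more, beside 0.0853%. In this blocked fit 12 had an unadjusted p under 0.05, beside 5.34% of all genes, and the smallest adjusted limma p was 0.233 (Siglecg). That fit without reconSCID replicate 3 gave 25 higher genes, beside 46.5% of all genes, 8 by 0.5 or more, beside 0.567%, and Ms4a1 alone by 1 or more, beside 0.0401%. In it Bank1, Pax5, Ebf1, Siglecg, Fcrl1, Fcrla and Fcmr had an unadjusted p under 0.05, which is 7 of 30, beside 3.91% of all genes.

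**Figure D3:**
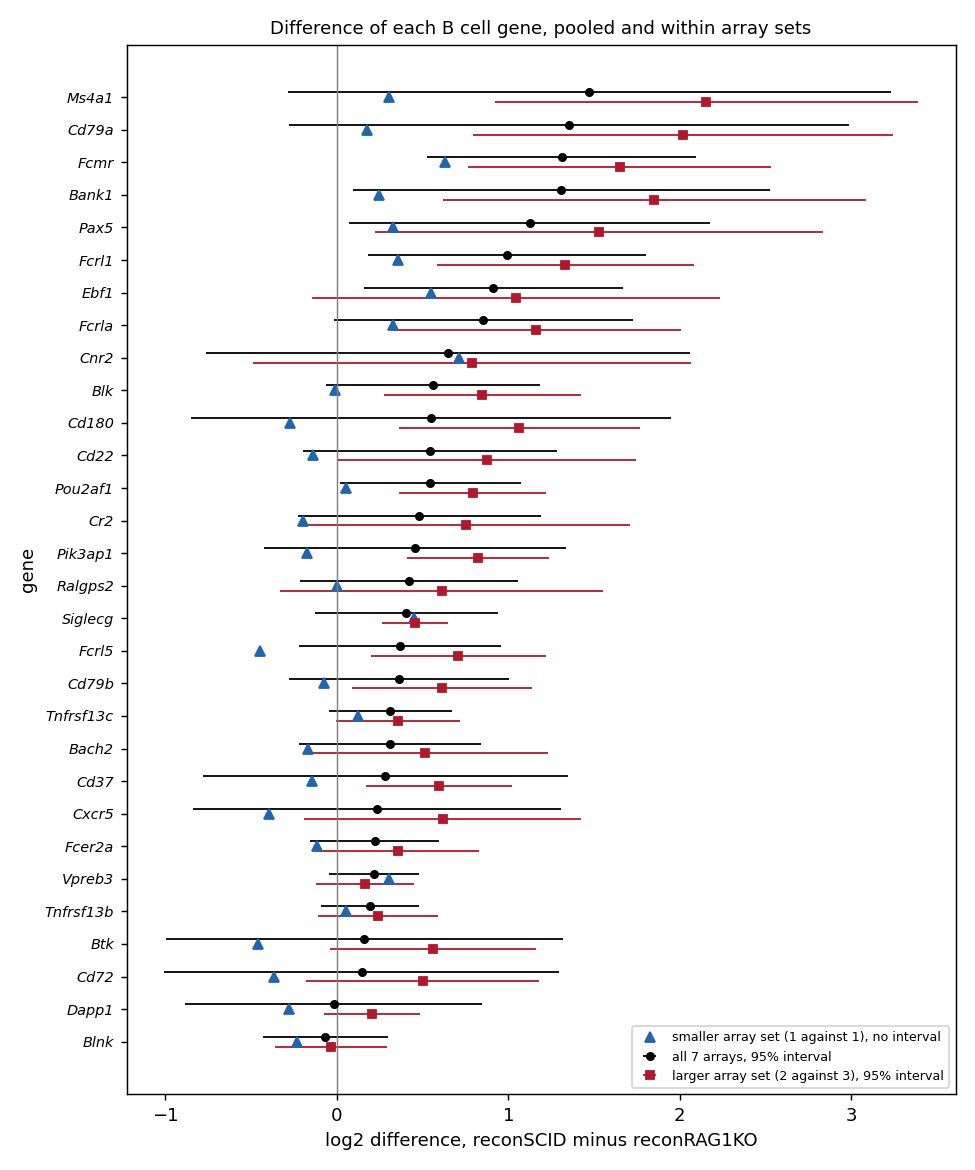
Log2 difference of each B cell gene, reconSCID minus reconRAG1KO, over all 7 arrays (black, 95% interval), within the larger array set (red, 95% interval) and within the smaller array set (blue, 1 array per group, no interval). Over all arrays the interval lies above 0 for 6 genes, and in the larger set for 16.

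Of the receptor chains, Cd79a and Cd79b both had higher means in reconSCID with overlapping groups. Cd79a (probe set 10551025), which encodes the Ig-alpha chain, measured 9.25, 7.35 and 10.40 in reconSCID replicates 1 to 3, and 8.10, 8.02, 7.29 and 7.18 in reconRAG1KO replicates 1 to 4 (log2 intensity). Replicates 1 and 3 were above every reconRAG1KO array and replicate 2 lay inside their range. The SD between arrays was 1.54 in reconSCID (n = 3) and 0.48 in reconRAG1KO (n = 4), and the difference in means of 1.35 had a 95% interval from -0.28 to 2.99. Within the larger set the difference of Cd79a was 2.02 (interval 0.79 to 3.25), and in the smaller set it was 0.18. Cd79b (probe set 10392142), the Ig-beta chain with which CD79A pairs, measured 7.87, 7.25 and 8.47 in reconSCID, and 7.58, 7.58, 7.51 and 7.33 in reconRAG1KO. Its difference was 0.36 (interval -0.28 to 1.01), and reconSCID replicate 2 was the lowest of the 7 arrays. Leaving out reconSCID replicate 3 brought the difference of Cd79a to 0.66 and that of Cd79b to 0.06.

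The 4 transcription regulators all had a higher mean in reconSCID, beside 47.6% of all genes, and 3 of them had an unadjusted p under 0.05, beside 0.863%. Pax5 (probe set 10512669), which keeps cells committed to the B lineage, measured 7.77, 7.26 and 9.21 in reconSCID, and 7.26, 6.68, 6.95 and 6.93 in reconRAG1KO. Replicate 3 carried the highest level, and replicate 2 was level with the highest reconRAG1KO array. The difference of Pax5 was 1.13 (interval 0.07 to 2.18), at an unadjusted limma p of 0.03947. It was 0.56 without reconSCID replicate 3, and 1.53 in the larger set and 0.33 in the smaller one. Ebf1 (probe set 10375360), which acts upstream of Pax5 in B cell specification, measured 6.82, 7.39 and 8.18 in reconSCID, and 6.26, 6.58, 6.51 and 6.84 in reconRAG1KO. Here replicate 1, not replicate 2, was the lowest reconSCID array, just inside the reconRAG1KO range. The difference of Ebf1 was 0.91 (interval 0.16 to 1.67), and it was 1.05 in the larger set, 0.55 in the smaller one and 0.55 without reconSCID replicate 3. Pou2af1, a coactivator of octamer-binding factors, measured 8.23, 7.45 and 8.19 in reconSCID, and 7.68, 7.19, 7.38 and 7.39 in reconRAG1KO. It was 1 of 3 genes in which replicate 1 was the highest array, with Dapp1 and Tnfrsf13b. The difference of Pou2af1 was 0.54 (interval 0.02 to 1.07), or 0.05 in the smaller set. Bach2, a repressor that delays plasma cell differentiation, differed by 0.31 (interval -0.22 to 0.84), and by 0.03 without reconSCID replicate 3.

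Promoters were searched for the letters that octamer-binding factors, the partners of POU2AF1, and EBF1 are known to bind, and 4 promoters with a match are shown. RefSeq promoters of GRCm38.p6, from 250 bases before to 50 bases after a start site, were found for 26 of the 30 genes. They are printed 5′ to 3′ on the strand of the gene, with the match in capitals. The match in Bank1 is to the EBF palindrome CCCNNGGG, which reads alike on both strands, and those in Cnr2, Vpreb3 and Blnk are to the octamer ATGCAAAT on the reverse strand, where it reads ATTTGCAT.
Bank1 (chr3:136326017-136326316, minus strand): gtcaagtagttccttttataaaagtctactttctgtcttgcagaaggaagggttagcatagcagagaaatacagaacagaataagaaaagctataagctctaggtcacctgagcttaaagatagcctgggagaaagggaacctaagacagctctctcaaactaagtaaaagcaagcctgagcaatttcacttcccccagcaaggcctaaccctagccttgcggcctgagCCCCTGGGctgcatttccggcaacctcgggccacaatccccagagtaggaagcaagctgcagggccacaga
Cnr2 (chr4:135894939-135895238, plus strand): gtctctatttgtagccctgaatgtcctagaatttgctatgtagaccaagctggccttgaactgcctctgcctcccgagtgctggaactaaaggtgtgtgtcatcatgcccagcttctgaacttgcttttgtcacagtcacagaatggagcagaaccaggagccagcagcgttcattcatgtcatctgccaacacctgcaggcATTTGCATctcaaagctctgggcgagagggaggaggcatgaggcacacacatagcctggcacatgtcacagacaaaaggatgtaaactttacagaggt
Vpreb3 (chr10:75948050-75948349, plus strand): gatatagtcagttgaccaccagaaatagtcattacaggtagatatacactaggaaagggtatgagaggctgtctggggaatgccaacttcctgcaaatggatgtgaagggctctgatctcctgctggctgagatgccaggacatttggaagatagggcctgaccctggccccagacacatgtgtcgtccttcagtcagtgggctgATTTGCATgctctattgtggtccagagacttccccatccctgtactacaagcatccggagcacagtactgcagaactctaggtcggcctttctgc
Blnk (chr19:40994172-40994471, minus strand): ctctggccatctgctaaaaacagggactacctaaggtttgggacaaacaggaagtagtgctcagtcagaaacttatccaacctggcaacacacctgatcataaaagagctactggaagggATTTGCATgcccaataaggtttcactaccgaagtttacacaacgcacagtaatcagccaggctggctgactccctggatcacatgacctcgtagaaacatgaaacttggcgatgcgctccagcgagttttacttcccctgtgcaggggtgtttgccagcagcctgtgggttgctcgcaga
The matches begin 21 bases before the start site in Bank1, 48 in Cnr2, 45 in Vpreb3 and 130 in Blnk. The octamer was found on either strand in these 3 genes of 26, or 11.5%, beside 1.97% of the 27025 genes with a promoter in the table. The EBF palindrome was found in Bank1 and Cd22, 2 of 26 or 7.69%, beside 15.4% of all genes. The differences of these 5 genes ran from -0.07 (Blnk) to 1.31 (Bank1), and a match of letters is a description of the window only.

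Among the kinases and adaptors that carry the receptor signal, 4 of 6 measured genes were higher in reconSCID, beside 47.6% of all genes. The differences of the 6 ranged widely. Bank1 (probe set 10502335), a scaffold for Src-family kinases, measured 6.52, 5.54 and 7.94 in reconSCID, and 5.54, 5.38, 5.21 and 5.29 in reconRAG1KO. The reconRAG1KO arrays lay close together, and replicate 2 was level with the highest of them. The mean level of Bank1 over all arrays was not above the median of all probe sets, nor was that of Ms4a1. The difference of Bank1 was 1.31 (interval 0.09 to 2.52), at an unadjusted limma p of 0.03831, and it was 0.67 without reconSCID replicate 3. Blk (probe set 10420758), a Src-family kinase of B cells, measured 7.33, 6.78 and 8.00 in reconSCID, and 6.84, 6.83, 6.77 and 6.79 in reconRAG1KO. Replicates 1 and 3 were above a narrow reconRAG1KO range, and replicate 2 lay inside it. Its difference was 0.56 (interval -0.07 to 1.19), or 0.25 without reconSCID replicate 3 and -0.01 in the smaller set. Pik3ap1, the adaptor that links the receptor to PI3-kinase, differed by 0.46, by 0.82 in the larger set and by -0.18 in the smaller set, and by 0.16 without reconSCID replicate 3. Btk, a kinase of the receptor signal, measured 6.94, 5.50 and 7.56 in reconSCID, and 6.84, 6.71, 6.51 and 5.96 in reconRAG1KO. Its difference was 0.16 with a standard error of 0.49. Leaving out reconSCID replicate 3 turned the difference of Btk to -0.29. Blnk, the adaptor that couples SYK to BTK, measured 9.59, 9.72 and 9.46 in reconSCID, and 9.44, 9.48, 9.75 and 9.95 in reconRAG1KO, with full overlap. It was the one gene in which reconSCID replicate 3 did not exceed all reconRAG1KO arrays, and its interval ran from -0.43 to 0.30. Dapp1, an adaptor that binds PI3-kinase lipid products, had an interval from -0.89 to 0.85, and differed by 0.20 in the larger set and by -0.28 in the smaller set.

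All 9 coreceptors, Fc receptors and Fc receptor-like genes had a higher mean in reconSCID over the 7 arrays, beside 47.6% of all genes, with a median difference of 0.48. The median of the 9 was 0.75 in the larger array set and -0.12 in the smaller one, where Fcrl5, Cd72, Cr2, Cd22 and Fcer2a were lower in reconSCID. Leaving out reconSCID replicate 3 turned the difference of Cd72 to -0.32 and brought those of Fcrla, Cd22, Cr2, Fcrl5 and Fcer2a to 0.44, 0.16, 0.19, 0.21 and 0.06. Fcmr (probe set 10349593), the receptor for IgM, measured 7.88, 7.39 and 8.88 in reconSCID, and 6.89, 6.72, 6.58 and 6.76 in reconRAG1KO. Every reconSCID array was above every reconRAG1KO array, which held for 2 of the 30 genes (Fcmr and Tnfrsf13b), beside 1.23% of all genes, and the reverse for 0, beside 1.54%. The means of Fcmr were 8.05 ± 0.76 (SD, n = 3) in reconSCID and 6.74 ± 0.13 (SD, n = 4) in reconRAG1KO. Its difference of 1.31, a 2.48-fold higher level, had an interval from 0.53 to 2.10, the smallest unadjusted limma p of the 30 (0.00567) and an adjusted p of 1. It was 1.65 in the larger set, 0.63 in the smaller set and 0.90 without reconSCID replicate 3. Fcrl1, an Fc receptor-like protein of the B cell surface, measured 7.30, 6.53 and 8.04 in reconSCID, and 6.57, 6.09, 6.36 and 6.17 in reconRAG1KO. Of the reconSCID arrays, replicate 2 lay inside the reconRAG1KO range, and the difference of 0.99 had an interval from 0.18 to 1.80. Leaving out reconSCID replicate 3 gave Fcrl1 a difference of 0.62. Fcrla, an Fc receptor-like protein held inside the cell, measured 7.42, 6.69 and 8.31 in reconSCID, and 6.87, 6.79, 6.45 and 6.36 in reconRAG1KO, a difference of 0.85 (interval -0.02 to 1.73). Fcrl5, another Fc receptor-like protein of B cells, differed by 0.37, by 0.71 in the larger set and by -0.45 in the smaller set. The inhibitory lectin-like receptors had intervals that spanned 0. Cd22, which binds sialic acid and recruits the phosphatase SHP-1, differed by 0.55 (interval -0.20 to 1.29). Siglecg, a second sialic acid receptor that lowers receptor signalling, differed by 0.41 (-0.13 to 0.94). Cd72, a C-type lectin with an inhibitory tail, differed by 0.14 (-1.01 to 1.30). Siglecg had nearly the same difference in both array sets, 0.46 and 0.45. Cr2, the complement receptor CD21, differed by 0.48 (-0.23 to 1.19) and Fcer2a, the low-affinity IgE receptor CD23, by 0.22 (-0.16 to 0.60). Both genes stood highest in reconSCID replicate 3, at 8.14 and 8.00, and the other reconSCID arrays lay inside the reconRAG1KO range.

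**Figure D4:**
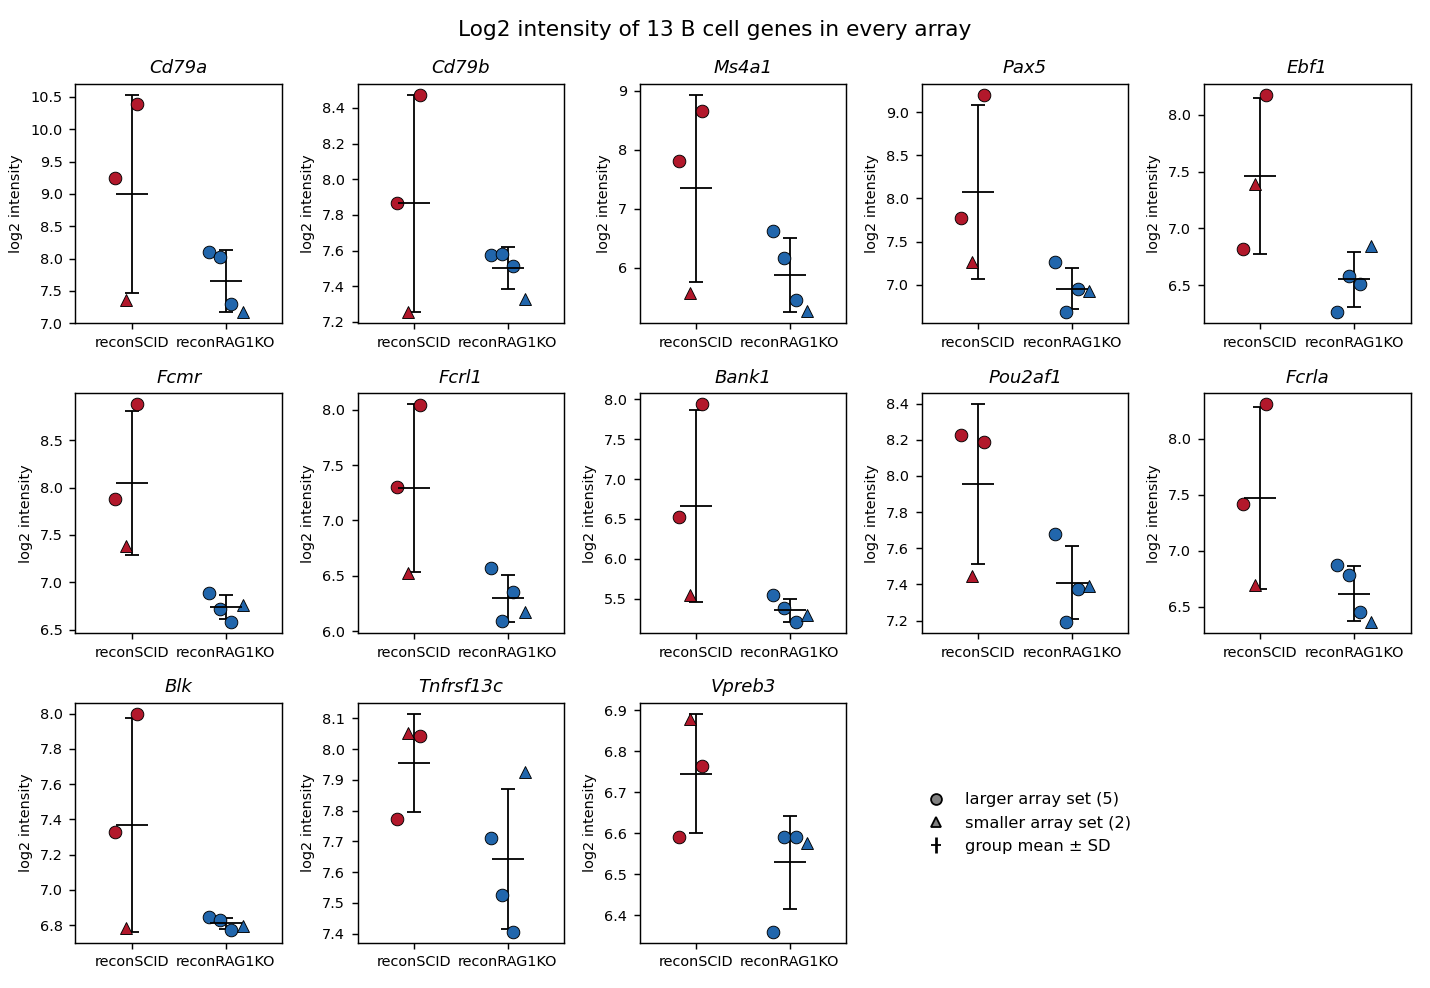
Log2 intensity of 13 B cell genes in every array, reconSCID left and reconRAG1KO right, with group means and SD as bars (n = 3 and 4). Triangles mark the 2 arrays of the smaller array set, and the y axis of each panel has its own range and does not start at 0.

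The membrane proteins that span the membrane 4 times were Ms4a1 and Cd37. Ms4a1 (probe set 10466172), which encodes CD20, measured 7.81, 5.57 and 8.66 in reconSCID, and 6.62, 6.16, 5.45 and 5.27 in reconRAG1KO. Its difference of 1.47 was the highest of the 30 (interval -0.29 to 3.23). Replicates 1 and 3 were more than 1 above every reconRAG1KO array, while replicate 2 lay inside their range and 0.31 above reconRAG1KO replicate 4. Leaving out reconSCID replicate 3 gave a difference of 0.82, and leaving out replicate 2 gave 2.36. In the larger set alone the difference of Ms4a1 was 2.16. Cd37, a tetraspanin of mature B cells and other leukocytes, differed by 0.28 (interval -0.78 to 1.35), by 0.60 in the larger set and by -0.15 in the smaller set, and by -0.08 without reconSCID replicate 3.

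The receptors for the survival cytokines BAFF and APRIL had small differences. Tnfrsf13c, the BAFF receptor, measured 7.77, 8.05 and 8.04 in reconSCID, and 7.71, 7.53, 7.41 and 7.93 in reconRAG1KO. Here replicate 2 was the highest of the 7 arrays, and reconRAG1KO replicate 4 lay above reconSCID replicate 1. The difference of Tnfrsf13c was 0.31 (interval -0.05 to 0.67). Tnfrsf13b, the receptor TACI, measured 7.05, 7.03 and 6.99 in reconSCID, and 6.94, 6.85, 6.56 and 6.98 in reconRAG1KO. The groups were separated by a narrow gap, and the difference of 0.19 had an interval from -0.09 to 0.48.

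The 3 positioning and innate receptors had higher means in reconSCID, beside 47.6% of all genes, with intervals that spanned 0. All 3 were among the genes lower in the smaller array set. Cxcr5, which guides B cells to follicles, differed by 0.23 (interval -0.84 to 1.31), by 0.62 in the larger set and by -0.40 in the smaller set, and by -0.24 without reconSCID replicate 3. Cd180, a Toll-like receptor relative, differed by 0.55 (-0.85 to 1.95), by 1.06 in the larger set and by -0.28 in the smaller set, and by 0.03 without reconSCID replicate 3. Cnr2, the cannabinoid receptor of immune cells, measured 6.58, 5.84 and 8.02 in reconSCID, and 6.48, 6.75, 6.31 and 5.12 in reconRAG1KO, a difference of 0.65 (-0.77 to 2.06). Only replicate 3 was above the reconRAG1KO range, and without it the difference of Cnr2 was 0.04. Vpreb3, a surrogate light chain relative of B cell precursors, measured 6.59, 6.88 and 6.76 in reconSCID, and 6.36, 6.59, 6.59 and 6.58 in reconRAG1KO. Replicate 2 was the highest array and the difference was 0.22 (-0.05 to 0.48). Ralgps2, an exchange factor for Ral GTPases, differed by 0.42 (-0.22 to 1.06), or by 0.08 without reconSCID replicate 3.

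The 5 lists of further B cell genes, immunoglobulin genes apart, had smaller median differences than the 0.44 of the 30 genes, and the differences between lists were not tested. Of the 22 further genes of the receptor cascade 19 were measured, and 14 were higher in reconSCID, beside 47.6% of all genes. The median difference of the 19 was 0.18, and 0 passed in either direction at an adjusted or unadjusted limma p under 0.05. Unadjusted, 0.863% of all genes were higher and 1.19% lower. Within the larger set 18 of the 19 were higher, beside 46.2% of all genes, with a median of 0.36. The median in the smaller set was -0.02. With a term for the array set, 6 of the 19 were higher and 0 lower at an unadjusted limma p under 0.05, beside 5.34% of all genes as higher. The kinase gene Prkcb measured 8.94, 8.15 and 9.61 in reconSCID, and 8.41, 8.41, 8.13 and 8.07 in reconRAG1KO, a difference of 0.65 (interval -0.13 to 1.42). Of 27 other B cell genes measured 18 were higher over all arrays, beside 47.6% of all genes, with a median of 0.10. In the larger set 22 were higher, beside 46.2% of all genes, with a median of 0.35. The median in the smaller set was -0.11. With a term for the array set, 4 of the 27 were higher at an unadjusted limma p under 0.05, beside 5.34% of all genes. Another 2 were lower at that threshold, beside 2005 of all 34760 probe sets. Over all arrays 1 was higher at an unadjusted limma p under 0.05, beside 0.863% of all genes. It was the transcription factor gene Mef2c, whose interval ran from 0.23 to 1.77. Precursor genes had a median of 0.06 over 13, germinal centre and plasma cell genes 0.02 over 14, and marginal zone and B1 genes -0.00 over 10. In the larger set these medians were 0.09, 0.18 and -0.02, and in the smaller set 0.05, -0.07 and 0.09. The heavy chain gene Ighm, which is not among the 30, measured 8.39, 7.16 and 8.09 in reconSCID, and 6.84, 7.26, 6.91 and 7.25 in reconRAG1KO, a difference of 0.81 (0.10 to 1.53). In Ighm too, replicate 2 lay inside the reconRAG1KO range. Ighm was 1 of 3 immunoglobulin constant region genes measured of 12 listed, and all 3 had higher means in reconSCID, beside 47.6% of all genes. Igha differed by 0.97 (-0.98 to 2.93), and Ighg3 by 0.14 at low levels of 3.50 to 4.10. In the smaller set Ighm differed by -0.10, Igha by -0.50 and Ighg3 by 0.14. Ighd had no probe set under the rule and was not analysed here.

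Markers of other cell types differed between the same arrays, and their part in the result was not tested. Dendritic cell and macrophage genes, 18 of 18 measured, had medians relative to the reconRAG1KO mean of 0.41, -0.90 and 0.90 in reconSCID replicates 1 to 3, and of 0.23, 0.24, 0.07 and -0.60 in reconRAG1KO replicates 1 to 4. Their summed intensity ran from 8082 to 28846 in reconSCID and from 11293 to 19289 in reconRAG1KO. Thymocyte and T cell genes, 16 of 19 measured, had medians of 0.01, -0.28 and 0.47 in reconSCID, and of 0.19, 0.21, -0.14 and -0.23 in reconRAG1KO. Their summed intensity ran from 2418 to 5162 in reconSCID and from 2722 to 4224 in reconRAG1KO. Plasmacytoid dendritic cell genes, some of which B cells share, had medians of 0.20, -0.25 and 0.38 in reconSCID, and of 0.23, 0.03, -0.04 and -0.27 in reconRAG1KO over 10 of 12 genes. Their summed intensity ran from 3194 to 5792 in reconSCID and from 3167 to 5327 in reconRAG1KO. Epithelial genes ran the other way, with medians of -0.67, 0.52 and -1.15 in reconSCID, and of -0.34, -0.21, 0.07 and 0.50 in reconRAG1KO over 15 of 16 genes. Their summed intensity ran from 5513 to 19118 in reconSCID and from 9835 to 20658 in reconRAG1KO. Neutrophil genes, 11 of 11 measured, were lower in reconSCID in 10 of 11 cases, with a median difference of -1.47 and summed intensities of 1200 to 2021 in reconSCID and 1463 to 10008 in reconRAG1KO. Medullary epithelial genes were lower in reconSCID in 13 of 13 measured, with a median difference of -0.48, and MHC class II genes were higher in 4 of 8. Natural killer cell genes were higher in 3 of 7 and erythroid genes in 1 of 3. Dendritic cell and macrophage genes were higher in 11 of 18, T cell genes in 7 of 16 and plasmacytoid genes in 6 of 10. Of all genes, 47.6% were higher in reconSCID, the share to set beside these counts and that of the neutrophil genes. In the larger set the last 3 counts were 16, 12 and 6, beside 46.2% of all genes. The medians there were 0.46, 0.12 and 0.16, and in the smaller set -0.38, -0.12 and -0.02. No gene of these lists passed at an adjusted limma p under 0.05, and none was listed at 0. The arrays in which the 30 B cell genes were highest, reconSCID replicates 3 and 1, were those with the highest dendritic and macrophage medians and the lowest epithelial medians. Xist, the transcript of the inactive X chromosome, measured 8.02, 5.68 and 9.61 in reconSCID, and 5.11, 9.96, 6.22 and 5.26 in reconRAG1KO. Among the reconSCID arrays its order, replicate 3 over replicate 1 over replicate 2, was that of 20 of the 30 B cell genes. The Y-linked gene Uty measured 7.90, 7.39 and 7.89 in reconSCID, and 7.38, 6.17, 7.46 and 7.03 in reconRAG1KO. The Y-linked gene Kdm5d measured 6.87, 6.86 and 6.93 in reconSCID, and 6.89, 6.00, 7.13 and 6.30 in reconRAG1KO. The labels give no sex, and the part of sex in the result was not tested.

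**Figure D5:**
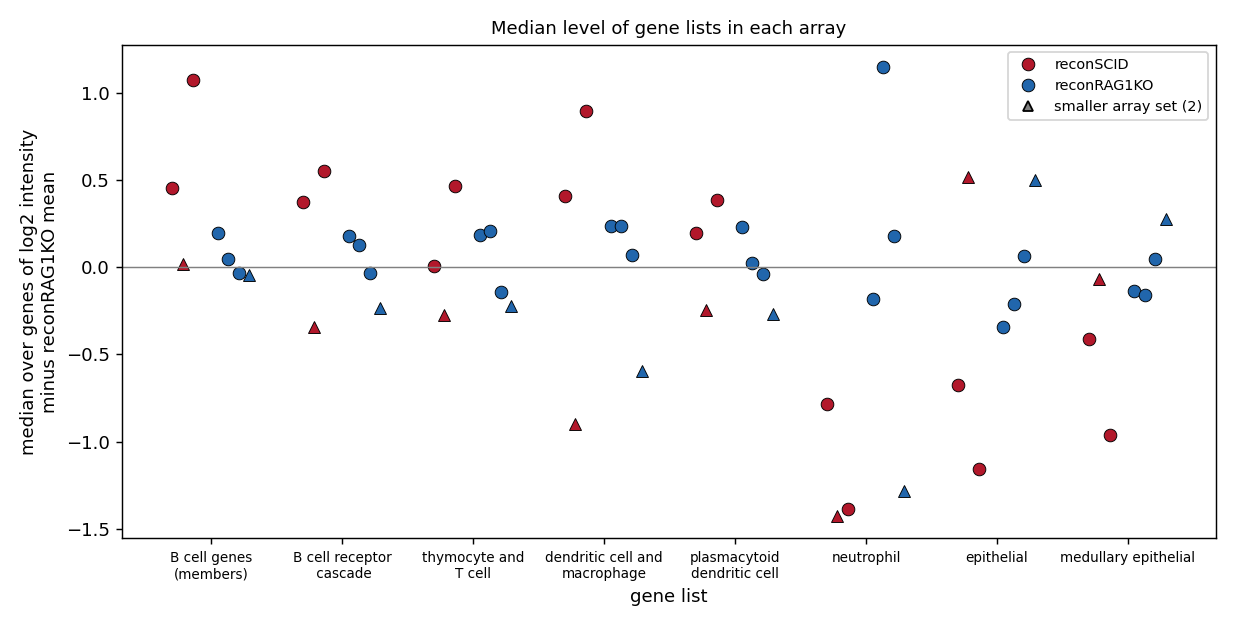
Median over the genes of each list of log2 intensity minus the reconRAG1KO mean, in each array, with reconSCID left of reconRAG1KO within a list. For the 30 B cell genes the reconSCID arrays lie at 0.46, 0.02 and 1.07, and triangles mark the smaller array set.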

How the data were processed

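RNA of 7 sorted samples, 3 reconSCID and 4 reconRAG1KO as their titles name them, was hybridised to Affymetrix arrays, from 6 µg total RNA per the labels. Each deposited value is the linear intensity of a probe set, which the authors had summarised from its probes by a method not given in the sources used here. Array medians were 88.6 to 96.3. With 0 values below 1, log2 was taken with no pseudocount. Of 34760 probe sets, 21640 had 1 gene symbol, 1321 several and 11799 none in the annotation used. The number of arrays limits the precision.

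The tests were made with limma 3.58.1 (lmFit, eBayes; R 4.3.3) over all 34760 probe sets, two-sided, with Benjamini-Hochberg adjustment, a threshold of 0.05 and reconSCID minus reconRAG1KO as the difference. Shares of all genes are over 19937 genes with 1 probe set each. Array sets are the first split of average-linkage clustering on the correlation of all probe sets. The 7 deposited values all differed in 22 of the 30 B cell genes. All members are reported; those given in every array are 5 core genes and the 8 others with the smallest unadjusted p, besides others chosen after their values were seen. Up to 3 genes per other list, by unadjusted p, and 6 fixed ones could be named. The members and lists were chosen with earlier results of these data known. The replicate numbers were not taken as pairs. Same-numbered samples had correlations of deviations of 0.47, -0.51 and 0.31. The pair at -0.51 crosses the 2 array sets, and reconRAG1KO replicate 2 with reconSCID replicate 3, both in the larger set, reached 0.43. These correlations therefore cannot decide whether the numbers are pairs.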

Additional observations from a re-analysis of the deposited data

Results flagged for a closer look

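In 3 of the 30 B cell genes, 1 reconRAG1KO array stood apart from the other 3 by a gap that was most of the range of the group, above the 95% critical value of Dixon's test. Chance flags about 1 in 20 such groups, a rate that need not hold where values are tied. The share over all genes was not counted. Dapp1 measured 7.94 in reconRAG1KO replicate 4, an array of the smaller set, against a group median of 8.69. Cd22 measured 6.74 in reconRAG1KO replicate 3, against a median of 7.08, and replicates 2 and 4 were tied at 7.09. Vpreb3 measured 6.36 in reconRAG1KO replicate 1, against a median of 6.58, and replicates 2 and 3 were tied at 6.59. The reconSCID group of 3 was too small for this check.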

How the results depend on the processing

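No B cell gene passed at an adjusted p under 0.05 under any of the alternatives run, while 6 did at an unadjusted limma p. Over all probe sets 0 passed, against 57 with array weights (47 higher and 10 lower, with weights of 4.79 and 0.12 for reconSCID replicates 1 and 2) and 1159 at an unadjusted p under 0.05 (765 higher and 394 lower). For the 5 core genes and the 8 others with the smallest unadjusted p, all 206 alternative values kept their direction. As the 8 were picked by p in the reported fit, a kept direction was favoured by that choice. Outside these 13 genes, leaving out reconSCID replicate 3 turned Btk, Cd72, Cd37 and Cxcr5 to -0.29, -0.32, -0.08 and -0.24. The smallest adjusted limma p among the 206 values was 0.0603 (Fcmr, array weights, and 1 in the fit reported). The median difference of 0.44 was 0.42 with quantile normalization, 0.42 with median centring, 0.41 with a pseudocount of 16, 0.41 over the 26 genes whose level was above the median of all probe sets, and 0.46 with a term for the array set. With the replicate number as a block it was 0.39 and 0 genes passed. That blocked fit left out reconRAG1KO replicate 4, whose number has no reconSCID sample. Leaving that array out without the block also gave 0.39. Leaving out 1 sample gave medians of 0.20 to 0.78, the lowest without reconSCID replicate 3 and the highest without reconSCID replicate 2, and 0 genes past the test in each. The leave-one-out fits with the array set as a term, chosen after seeing the data as were the counts without reconSCID replicates 3 and 2, gave medians of 0.18 to 0.73. Against the 1 reconRAG1KO array of its own set, reconSCID replicate 2 was higher in 15 genes, beside 46% of all genes. Against all reconRAG1KO arrays it was higher in 6, beside 29.7% of all genes. To exceed 1 array asks less than to exceed all of them, so these 2 counts are not alike. The cause of the other moves was not tested. Protein motifs were not searched.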
